A study of Homo sapiens with 6 samples.

Results

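GPRC5A, GPRC5B and GPRC5C are class C G protein-coupled receptors with no settled ligand, and the family became known through genes that retinoic acid induces. They are described here with 7 genes of retinoic acid signalling: the receptors RARA, RARB, RARG, RXRA and RXRB, the carrier CRABP2 and the degrading enzyme CYP26B1. These 10 genes, of 61533 gene rows, were chosen from earlier results on the same libraries, in which GPRC5C stood among the largest increases; the other 9 were added as its paralogs and as retinoid genes. All 10 passed the low-count filter, GPRC5C only through the shKDM2B libraries, so each was among the 14071 genes tested. The change in GPRC5C, the gene chosen on it, is therefore given as a description with no p-value.

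All 6 libraries came from MDA-MB-231, a cell line of triple-negative breast cancer with a mesenchymal-like form. The control group (3 libraries) carried an empty vector and is labelled WT. The other group (3 libraries) carried shKDM2B, an RNA hairpin against KDM2B, and is labelled as a KDM2B knockdown. KDM2B is a histone demethylase that binds unmethylated CG dinucleotides and belongs to a Polycomb complex. The growth protocol, shared by both groups, lists fetal bovine serum and names no retinoid. The deposited columns carry 1 hairpin code, and the control is a vector without a hairpin, so loss of KDM2B and other effects of the hairpin cannot be told apart.

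Retinoic acid is made in cells from retinol by dehydrogenases and is broken down by the CYP26 enzymes. CRABP2 carries it to the nucleus, where a retinoic acid receptor (RAR) paired with a retinoid X receptor (RXR) binds repeated hexamers in DNA. Without ligand the pair recruits corepressors, and with ligand it recruits coactivators such as NCOA3. RARB and the CYP26 genes are classical direct targets, so the pathway contains its own feedback.

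Library totals ran from 10190149 to 15737951 counts. KDM2B had 589, 714 and 902 counts in the empty vector libraries and 153, 166 and 224 in the shKDM2B libraries, a log2 fold change of -2.12 (SE 0.08, adjusted p 8.77e-11). Changes were broad: 60.9% of tested genes had an adjusted p under 0.05, 30.5% higher and 30.4% lower in shKDM2B, and the 2 groups did not overlap for 65.5%. The 6 markers of the mesenchymal-like line summed to 6566 to 6889 CPM in empty vector and 6078 to 6365 CPM in shKDM2B libraries. Among them vimentin (VIM) fell from 1299 ± 52.3 to 405.9 ± 10.3 CPM, a log2 fold change of -1.68 (SE 0.04, adjusted p 1.43e-12), CAV1 was at -0.35, CD44 at 0.20, AXL at 0.17 and MSN at -0.03, and SPARC went from a mean of 0.441 to one of 2.02 CPM. Of other cell types, 0 of 7 leukocyte and 0 of 6 fibroblast markers passed the filter, with at most 12 and 4 counts in any library. Luminal breast markers summed to 630 to 806 CPM (CPM is the usual depth-scaled count, here with library sizes adjusted by the TMM method) in empty vector and to 911 to 962 CPM in shKDM2B libraries, with 4 of 7 measured markers higher and 1 lower. The estrogen receptor ESR1 had at most 4 counts. Endothelial markers, of which KDR alone of 6 passed the filter, summed to 8.76 to 10.9 CPM in empty vector and 26.5 to 28.1 CPM in shKDM2B libraries. Mitochondrially encoded genes took 0.0767% to 0.151% of counts in empty vector and 0.196% to 0.476% in shKDM2B libraries, and the nuclear RNA MALAT1 took 0.0958% to 0.107% and 0.246% to 0.311%. The part of these shifts in the results below was not tested.

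Promoter sequences show where retinoid receptor repeats lie among these genes. RefSeq promoters of 300 bases (GRCh38.p14, 250 before to 50 after a start) were found for 8 of the 10 members, in 15 entries, but for neither GPRC5A nor GPRC5C. Both strands were searched for pairs of retinoid receptor hexamers (AGGTCA, its variant GGGTCA, the further variant AGTTCA and, last, the variant GGTTCA) in direct repeat with a gap of 1, 2 or 5 bases. Of 35116 promoters, 0.131%, 0.0399% and 0.0883% hold such a repeat with the respective gap, while 38.6% hold at least 1 of the hexamers alone. Among the members' 15 entries, 1 holds a repeat, an entry of RARB at chr3:25428013-25428312 on the plus strand. A CYP26A1 entry at chr10:93073643-93073942, plus strand, holds another, and CYP26A1 is the paralog of CYP26B1. Both are printed because these target genes are compared with CYP26B1 below, with the repeat with a gap of 5 bases in capitals (in CYP26A1 it is read on the other strand).
RARB: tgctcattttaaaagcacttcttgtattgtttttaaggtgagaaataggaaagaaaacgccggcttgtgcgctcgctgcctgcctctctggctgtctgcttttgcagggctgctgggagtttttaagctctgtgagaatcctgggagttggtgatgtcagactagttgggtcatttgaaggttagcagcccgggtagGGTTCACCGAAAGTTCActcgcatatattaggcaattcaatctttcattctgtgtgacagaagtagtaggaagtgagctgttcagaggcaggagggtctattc
CYP26A1: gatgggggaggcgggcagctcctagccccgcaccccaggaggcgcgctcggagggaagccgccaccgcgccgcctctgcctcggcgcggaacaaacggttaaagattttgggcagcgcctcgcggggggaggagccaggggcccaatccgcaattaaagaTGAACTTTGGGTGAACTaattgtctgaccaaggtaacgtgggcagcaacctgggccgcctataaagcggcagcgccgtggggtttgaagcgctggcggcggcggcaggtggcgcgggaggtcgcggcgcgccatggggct

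CG dinucleotides, the bases that KDM2B's zinc finger recognises, differ widely among the members' promoters. All promoters of this length hold a median of 14, with quartiles of 4 and 28. The RXRA entry at chr9:134326205-134326504 (plus strand) holds 65, a number that 0.0313% of promoters reach. The CYP26B1 entry at chr2:72147813-72148112 (minus strand) holds 19, which 42.9% of promoters reach. A second RXRA entry, at chr9:134379045-134379344, holds 8. The entries of RARG and CRABP2, also called higher, hold 14 and 20. Among members not called higher, the RARA entries hold 12, 19 and 22 and those of RXRB 17 and 26. The RARB entries hold 1, 2, 7 and 33, and that of GPRC5B holds 23. The first entry of RXRA and that of CYP26B1 are printed, with CG in capitals, because both genes rose and these entries stand far apart in CG content. Neither of them holds one of the retinoid receptor hexamers.
RXRA: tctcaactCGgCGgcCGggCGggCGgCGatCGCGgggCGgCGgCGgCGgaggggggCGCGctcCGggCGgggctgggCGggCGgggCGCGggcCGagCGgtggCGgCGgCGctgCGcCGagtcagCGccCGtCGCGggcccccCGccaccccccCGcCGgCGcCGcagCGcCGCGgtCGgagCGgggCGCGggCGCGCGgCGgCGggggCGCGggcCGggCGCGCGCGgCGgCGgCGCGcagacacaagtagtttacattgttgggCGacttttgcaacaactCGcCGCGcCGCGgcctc
CYP26B1: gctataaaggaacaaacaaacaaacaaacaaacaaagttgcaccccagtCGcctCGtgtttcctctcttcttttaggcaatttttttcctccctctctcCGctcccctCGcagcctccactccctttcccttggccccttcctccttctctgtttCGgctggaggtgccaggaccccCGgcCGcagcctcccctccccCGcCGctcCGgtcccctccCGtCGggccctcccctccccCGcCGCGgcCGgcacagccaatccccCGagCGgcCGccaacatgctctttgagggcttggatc

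Within the GPRC5 family the members went in different directions. GPRC5C (ENSG00000170412.18, chromosome 17 from 74424851 to 74451653, plus strand, GRCh38) had 8, 5 and 4 counts in the empty vector libraries and 154, 170 and 207 in the shKDM2B libraries. Its level was 0.778, 0.476 and 0.290 CPM in empty vector and 14.97, 14.89 and 13.48 CPM in shKDM2B. Every shKDM2B library thus lay far above every empty vector library. GPRC5C passed the low-count filter only through the shKDM2B libraries, so it had to differ. The means were 0.515 ± 0.246 and 14.5 ± 0.839 CPM (SD, n = 3 each), a log2 fold change of 4.84, the fifth largest of 14071 (rank 5). The size of this ratio rests on 17 counts over the 3 empty vector libraries, for which the exact Poisson 95% interval is 9.90 to 27.2 counts (counting error only). GPRC5C overlaps no other annotated gene.

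GPRC5A, the family's most abundant member here and the one among the retinoic acid responsive genes listed below, was lower in shKDM2B cells. It lies on chromosome 12 from 12890782 to 12917937 (ENSG00000013588.9, plus strand). Its level was 790, 705 and 817 CPM in empty vector and 440, 440 and 454 CPM in shKDM2B. The groups did not overlap, and the means of 770.5 ± 58.2 and 444.6 ± 8.10 CPM gave a log2 fold change of -0.79 (SE 0.05, adjusted p 1.25e-08), a 1.73-fold fall.

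GPRC5B, a receptor of brain and adipose tissue among others, had 3.50, 4.19 and 2.82 CPM in empty vector and 3.50, 3.94 and 4.10 CPM in shKDM2B. Its groups overlapped, and its log2 fold change of 0.16 (SE 0.19, adjusted p 0.486) did not pass the test. It lies on chromosome 16 from 19856691 to 19886167 (minus strand) and overlaps IQCK on the other strand, which had 14 to 26 counts. GPRC5D, the plasma cell antigen and the last of the 4 family members, had 7, 9 and 12 counts against 5, 7 and 7 and did not pass the filter.

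**Figure D1:**
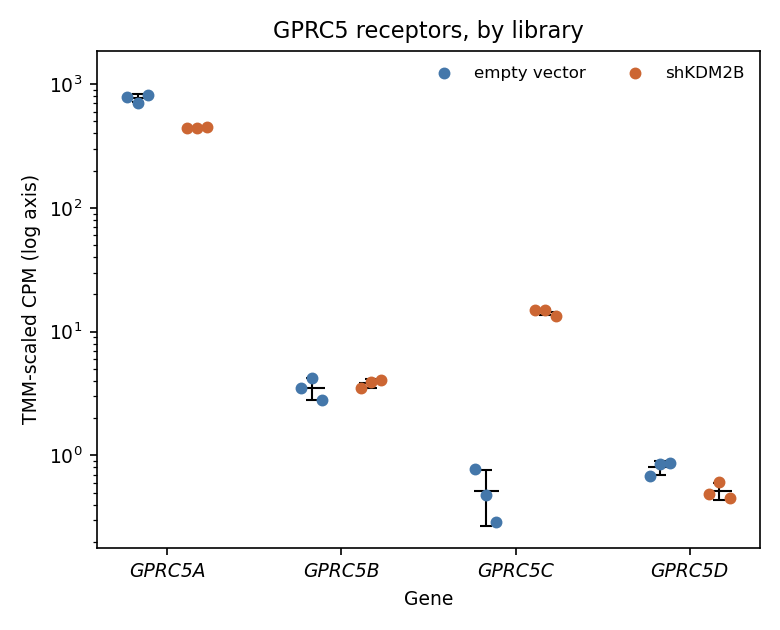
TMM-scaled CPM on a log axis for the 4 GPRC5 genes in each library (points), with mean and SD (black) for 3 empty vector and 3 shKDM2B libraries. GPRC5C rises from 0.515 to 14.5 CPM, GPRC5A falls from 770.5 to 444.6 CPM, and the 2 groups of GPRC5B overlap.

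Most neighbours of GPRC5C had too few counts to test. Of 22 other annotated genes within 250 kb on either side, 2 were tested, 0 were higher and 1 was lower. Over all tested genes 30.5% were higher and 30.4% lower, so 2 genes say little about the region. RAB37, not tested, had 2, 0 and 0 counts in empty vector and 4, 5 and 7 in shKDM2B libraries. The gene called lower was RPL38, a ribosomal protein gene, at a log2 fold change of -0.57 (SE 0.11, adjusted p 4.98e-04). The chloride channel gene TTYH2 was at -0.04 (SE 0.28, adjusted p 0.923). The nearest protein-coding genes on either side, GPR142 and CD300A, a receptor of pancreatic islets and one of leukocytes, had 0 counts in every library. The neighbours were looked up after the change in GPRC5C was known.

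The genes whose profile over the 6 libraries was most like that of GPRC5C were found by the root mean square difference of gene-centred log2 CPM, among 11937 genes with a mean of at least 1 CPM. They were CALCR, the calcitonin receptor (0.43), PMEPA1, a gene induced by TGF-beta (0.46), the protocadherin PCDH1 (0.53), the DNA-binding protein ARID3A (0.54) and the placental phosphatase ALPP (0.58). CALCR went from 0.459 ± 0.249 to 11.3 ± 1.25 CPM and ARID3A from 4.82 ± 0.373 to 63.9 ± 3.50 CPM. The measure takes in the size of the difference between the groups, which GPRC5C was chosen for. CALCR and ALPP, with at most 7 and 10 counts per empty vector library, passed the low-count filter only through the shKDM2B libraries. PCDH1, with 21, 11 and 12 counts in empty vector, also needed the shKDM2B libraries to pass. Of the retinoid genes, DHRS3 stood nearest, at position 15 (0.74), and CYP26B1 at position 204 (1.41).

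Among the retinoic acid receptors RARA was lower and RARG higher in shKDM2B cells. RARA, the widely expressed alpha receptor, had 29.5, 28.7 and 34.0 CPM in empty vector and 18.9, 21.0 and 21.0 CPM in shKDM2B. All shKDM2B libraries were below all empty vector libraries, which gave RARA a log2 fold change of -0.60 (SE 0.09, adjusted p 5.67e-05). RARG, the gamma receptor best known from skin, had 12.7, 15.4 and 13.0 CPM against 26.2, 26.3 and 23.7 CPM. It was higher in every shKDM2B library, with a log2 fold change of 0.88 (SE 0.10, adjusted p 2.96e-06).

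RARB, the beta receptor whose printed promoter carries the repeat, had 4.28, 5.05 and 3.98 CPM in empty vector and 5.54, 5.08 and 5.67 CPM in shKDM2B. Its groups parted by a small margin, and its log2 fold change of 0.30 (SE 0.16, adjusted p 0.114) did not pass the test. RARB overlaps TOP2B on the other strand, which had 1922 to 2793 counts where RARB had 44 to 87. Without a stated strand setting, reads of the 2 genes in the shared stretch cannot be told apart.

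Per kilobase of exon, RARA made up 63.1%, 58.1% and 66.5% of the summed level of the 3 RAR genes in empty vector libraries. It made up 37.7%, 40.6% and 41.9% in shKDM2B libraries, so the groups did not overlap. The means were 62.6% ± 4.23 and 40.1% ± 2.19 (SD, n = 3 each), with a two-sided exact permutation p of 0.1, the smallest that 3 against 3 allows. This share does not depend on library scaling. It was computed after the direction of RARA and RARG was known. With RARA lower and RARB and RARG higher in every shKDM2B library, the groups had to part. The permutation p therefore adds no support.

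RXRA, the alpha retinoid X receptor and common partner of many nuclear receptors, was higher in every shKDM2B library than in any empty vector library. It had 24.2, 24.7 and 27.2 CPM in empty vector and 57.0, 58.5 and 57.6 CPM in shKDM2B, a log2 fold change of 1.18 (SE 0.07, adjusted p 4.44e-09). RXRB, its beta paralog, had 36.8, 43.7 and 40.6 CPM against 39.7, 39.1 and 37.4 CPM. The RXRB groups overlapped, and its log2 fold change was -0.06 (SE 0.08, adjusted p 0.497). RXRB overlaps SLC39A7, a zinc transporter gene on the other strand, which was higher at 0.41 (adjusted p 1.90e-05). RXRG had 0 counts in 5 libraries and 1 count in shKDM2B replicate 3.

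**Figure D2:**
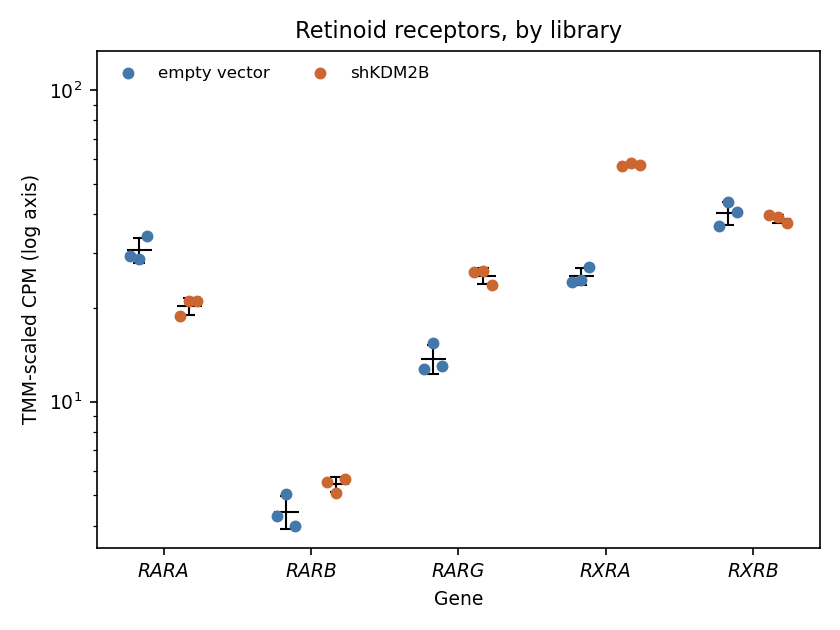
TMM-scaled CPM on a log axis for the 5 measured RAR and RXR genes in each library (points), with mean and SD (black) for 3 empty vector and 3 shKDM2B libraries. RARA is lower and RARG and RXRA are higher in every shKDM2B library, while RXRB overlaps between the groups.

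CYP26B1, which breaks down retinoic acid, was the member with the largest tested increase. It had 19.3, 17.8 and 19.4 CPM in empty vector and 66.2, 60.6 and 61.0 CPM in shKDM2B. The groups lay well apart, with a log2 fold change of 1.73 (SE 0.07, adjusted p 1.83e-10), a 3.32-fold rise. CYP26A1, whose promoter carries the other printed repeat, had 0 counts in every library, which allows up to 3 counts per library, or 0.191 to 0.294 unscaled CPM. CYP26C1 had at most 5 counts.

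CRABP2, which delivers retinoic acid to RARs, had 3.21, 4.67 and 3.48 CPM in empty vector and 5.54, 4.55 and 5.41 CPM in shKDM2B. The groups overlapped through empty vector replicate 2 and shKDM2B replicate 2. Its log2 fold change of 0.46 (SE 0.18) had an adjusted p of 0.0427, a call that was lost without any 1 of 4 libraries: empty vector replicate 1 (adjusted p 0.146), empty vector replicate 3 (0.144), shKDM2B replicate 1 (0.110) and shKDM2B replicate 3 (0.129). It was also lost with the replicate block (0.0568), DESeq2 (0.126), no filter (0.0903) and a test against a 1.2-fold change (0.139), and its adjusted p was 0.00804 without empty vector replicate 2. At 33 to 83 counts per library, CRABP2 is the least firmly measured of the members that passed.

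FABP5, the carrier that instead takes retinoic acid and fatty acids to PPAR receptors, fell from 9.92 ± 1.32 to 4.01 ± 0.149 CPM, which is -1.30 on the log2 scale (SE 0.15, adjusted p 4.48e-06). FABP5 has several pseudogene copies, so its counts are uncertain to that extent. The ratio of CRABP2 to FABP5 was 0.297, 0.441 and 0.414 in empty vector libraries and 1.33, 1.16 and 1.38 in shKDM2B libraries. The groups did not overlap (two-sided exact permutation p 0.1, n = 3 each, the smallest possible), and the ratio was computed after both changes were known. The fall of FABP5 largely fixed this outcome, so the permutation p adds no support.

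Of the 9 members not chosen on their change, 6 passed the test, 4 higher (CYP26B1, RXRA, RARG and CRABP2) and 2 lower (GPRC5A and RARA). That share lies near the 60.9% of all tested genes. Without shKDM2B replicate 1, the library with the largest mitochondrial share, 5 of 9 passed, CRABP2 being lost. For 6 of the 9 the groups did not overlap, against 65.5% of all tested genes. The median log2 fold change of the 9 was 0.30, and that of all tested genes was -0.01.

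Per kilobase of union exon length, the members' levels changed order. In empty vector cells GPRC5A led with 91.3 ± 6.90 CPM per kb, before RXRB (10.3 ± 0.889) and RARA (6.49 ± 0.603). CYP26B1, CRABP2 and RARG followed, each overlapping its neighbour in that order, and then RXRA, RARB, GPRC5B and, last, GPRC5C at 0.0643 ± 0.0308 CPM per kb. In shKDM2B cells GPRC5A still led, at 52.7 ± 0.960 CPM per kb, but CYP26B1 was the second, at 12.5 ± 0.624, before RXRB at 9.87 ± 0.303. RXRA came next at 5.21 ± 0.0689 CPM per kb, and RARG, CRABP2 and RARA overlapped their neighbours behind it. GPRC5C stood at position 8 of 10, at 1.81 ± 0.105 CPM per kb, above RARB and GPRC5B. GPRC5C's level per kilobase depends on the length used, since its exons together span 8005 bases and its longest transcript 2988. So does part of the order: by longest transcript, CYP26B1 (13.2 CPM per kb) came just behind RXRB (13.3) and RARA (6.68) before CRABP2 (5.00) in shKDM2B cells. In empty vector cells RARG (4.64) and RXRA (4.39) then came before CYP26B1 (3.98) and CRABP2 (3.66).

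Other genes of retinoic acid synthesis went both ways, with 2 higher, 3 lower and 3 not called of 8 measured, out of 20 listed (60.9% of all tested genes were called). DHRS3, a retinaldehyde reductase and a known retinoic acid target that turns retinaldehyde back to retinol, had 1, 6 and 6 counts in empty vector and 86, 96 and 131 in shKDM2B. Every shKDM2B library was far above every empty vector library, from 0.368 ± 0.244 to 8.43 ± 0.0875 CPM, which is 4.45 on the log2 scale. DHRS3 passed the low-count filter only through the shKDM2B libraries, so it had to differ, and no p-value is given. That ratio rests on few empty vector counts and ran from 4.06 to 4.81 over the alternatives. RDH10, the dehydrogenase that makes retinaldehyde, rose from 17.4 ± 0.907 to 30.4 ± 0.845 CPM. The reductase RDH11 fell from 155.0 ± 12.6 to 107.7 ± 4.75 CPM, and RDH13 had a log2 fold change of -0.50 (SE 0.13, adjusted p 0.00421).

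The last step of synthesis was thinly expressed. ALDH1A3, the only measured retinaldehyde dehydrogenase of the ALDH1A group, had 30, 33 and 40 counts against 34, 30 and 37 and did not pass the test (log2 fold change -0.12, adjusted p 0.628). ALDH1A1 had 0 counts in every library. ALDH1A2, not tested, had 1, 0 and 2 counts in empty vector and 7, 7 and 6 in shKDM2B libraries. Of 16 listed uptake, binding and storage genes 5 were measured, 2 higher and 2 lower, where 30.5% of all tested genes were higher and 30.4% lower. Their median was -0.31 on the log2 scale. Besides CRABP2 and FABP5, these were DGAT1, which esterifies lipids and retinol (0.52), and the lipoprotein receptor SCARB1, which was lower at -0.31 (SE 0.05, adjusted p 1.48e-04). The retinol-binding protein RBP4 had 0 counts in every library.

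**Figure D3:**
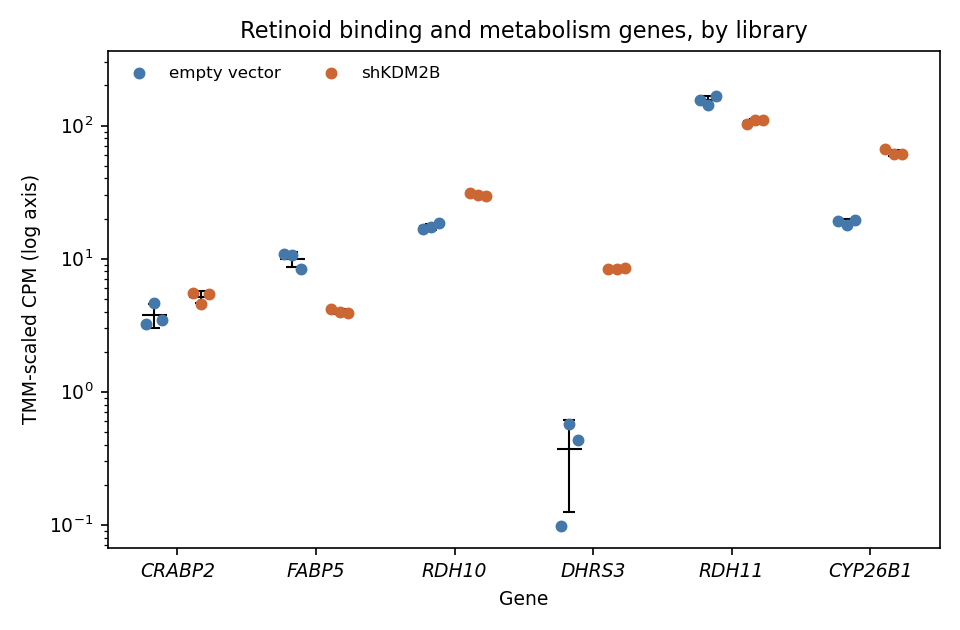
TMM-scaled CPM on a log axis for 6 retinoid binding and metabolism genes in each library (points), with mean and SD (black) for 3 empty vector and 3 shKDM2B libraries. DHRS3 and CYP26B1 are higher and FABP5 and RDH11 lower in every shKDM2B library, and the 2 groups of CRABP2 overlap.

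Known retinoic acid responsive genes went both ways. Of 32 listed, 18 were measured, of which 8 were higher, 5 lower and 5 not called, near the 60.9% called of all tested genes. Of the 8 higher genes, 2 passed the low-count filter only through the shKDM2B libraries, DHRS3 among them. The median of the 18 measured genes was 0.13 on the log2 scale. After DHRS3 and CYP26B1, the next largest increase was in BHLHE40, a transcriptional repressor of the clock and of differentiation, from 35.3 ± 1.39 to 102.0 ± 2.03 CPM. GPRC5A and RARA, above, were among the 5 that fell. LRAT, which stores retinol as esters, had a log2 fold change of -0.42 (adjusted p 0.158) and RAI14 one of 0.04 (adjusted p 0.456). RARRES1 and RARRES2, named for their response to retinoids, had 6 to 12 and 0 counts and were not tested. PLAAT4, also listed and not tested, had 12, 14 and 12 counts in empty vector and 1, 4 and 3 in shKDM2B libraries.

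Coregulators of the receptors went both ways, with 10 higher, 8 lower and 3 not called of 21 measured (24 listed, median 0.11), where 60.9% of all tested genes were called. The share among genes of like abundance was not computed. TBL1X, a subunit of a nuclear receptor corepressor complex, fell from 98.2 ± 0.782 to 42.7 ± 2.66 CPM, which is -1.20 on the log2 scale (SE 0.06, adjusted p 6.27e-10), while its paralog TBL1XR1 was at 0.25 and NCOR1 at -0.21. The coactivator NCOA3 rose from 82.6 ± 6.02 to 178.2 ± 7.74 CPM, and the acetyltransferase KAT2B had a log2 fold change of 0.83. The further coactivators NCOA2, CREBBP, EP300 and NCOA1, named after their values were seen, were higher at 0.78, 0.58, 0.58 and 0.45. On the same list PRMT1, CARM1 and MED1 were lower, at -0.68, -0.51 and -0.26.

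Other partners of RXR were higher for 5 and lower for 3 of 10 measured (13 listed), where 30.5% of all tested genes were higher and 30.4% lower. Their median was 0.39 on the log2 scale. PPARA, the lipid-sensing receptor of fat oxidation, rose from 13.7 ± 0.439 to 37.4 ± 1.07 CPM. The vitamin D receptor VDR rose from 26.3 ± 2.26 to 47.0 ± 0.393 CPM and the oxysterol receptor NR1H2 from 56.9 ± 3.66 to 92.1 ± 3.75 CPM. PPARG, the receptor of fat cell differentiation, fell from 23.6 ± 3.56 to 14.8 ± 1.32 CPM. Outside the GPRC5 family, 4 of 18 class C receptors were measured, with 1 higher and 1 lower. GABBR1, a subunit of the GABA-B receptor, was lower at -0.77 (SE 0.18, adjusted p 0.00216).

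**Figure D4:**
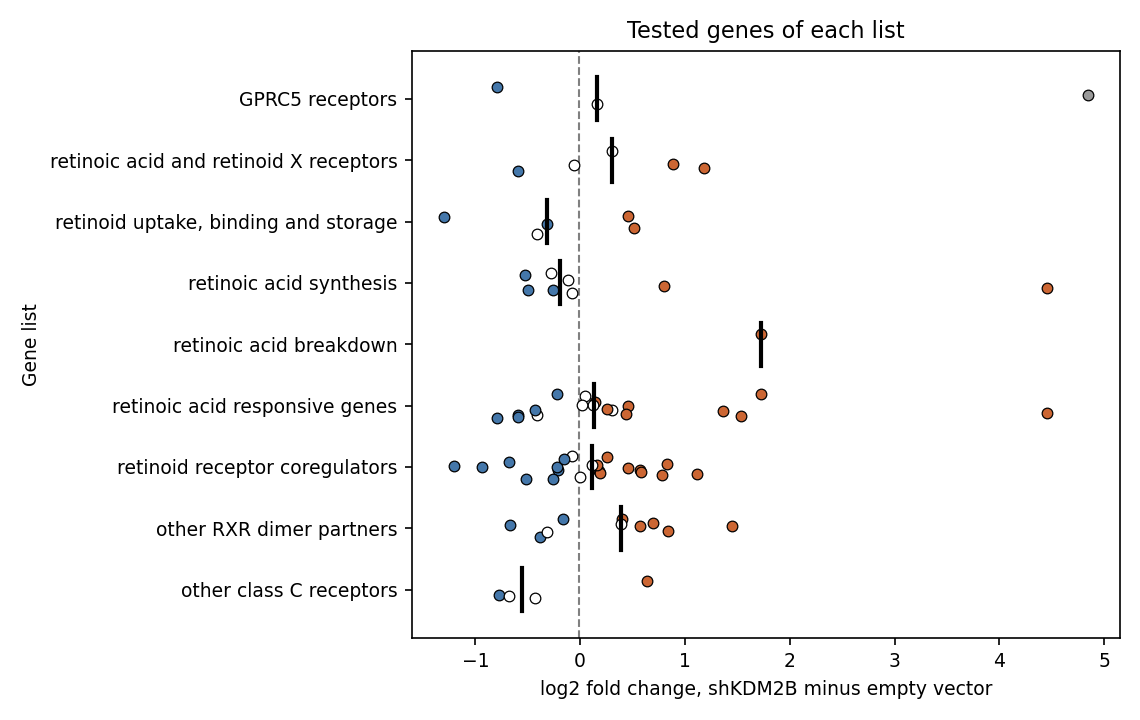
Log2 fold changes (shKDM2B minus empty vector) of the tested genes of 9 gene lists, with higher calls in orange, lower calls in blue, genes not called in white and GPRC5C, on whose change the members were chosen, in grey; some genes are in several lists. Black bars are list medians, from -0.55 to 1.73, and the dashed line is the median of all tested genes, -0.01.

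Annotated 3' ends were searched for CGACAC, a hexamer searched for because an earlier look at these libraries had noted it among genes that fell. Among tested genes with an annotated 3' UTR, 5.01% hold it, with a median log2 fold change of -0.24 against 0.01 for the others. Since the hexamer was picked from genes that fell in these libraries, the lower median is no independent result. Of the 10 members, RARA holds 1 (in 1417 bases of the longest coding model's 3' UTR), and the other 9 hold 0. The site lies at chr17:40357362-40357391 (GRCh38, plus strand), shown with the hexamer in capitals because RARA was one of the members that fell.
RARA: cagtagatgggcCGACACacacttggcccg

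GPRC5A, which also fell, has 0 such hexamers in a 3' UTR of 5398 bases. Whether the hexamer has a part in the fall of RARA was not tested.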

How the data were processed

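Ribosome-depleted total RNA was sequenced from 3 empty vector and 3 shKDM2B libraries. The authors deposited raw read counts per gene. The submitters' processing notes list Trim Galore, STAR and featureCounts, as well as DESeq2, edgeR, limma and GRCh38 (hg38), with no versions or roles. No source used here gives the annotation release, the strand setting or the handling of multi-mapping reads. Of 61533 rows, 61415 matched a symbol and 58356 are in GENCODE release 29, which gave lengths and coordinates. Columns whose names start with sh were taken as shKDM2B, the only hairpin group.

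Members, lists and tests were chosen with earlier results of these data known. After filterByExpr (minimum count 10, minimum total 15) and TMM scaling, edgeR's quasi-likelihood model (version 4.0.16 in R 4.3.3, robust, two-sided) was fitted. P-values were adjusted by Benjamini-Hochberg over 14071 genes and called under 0.05. Log2 fold changes are shKDM2B minus empty vector, and an SE is the size of the change divided by the square root of F. Named were the members, KDM2B, up to 4 called genes per list by size (mean of at least 1 CPM) and the 5 genes most like GPRC5C. Other names were added after their values were seen, and some genes are not reported here. Replicate libraries of a group all differed beyond counting noise (chi-square over its degrees of freedom, 2 to 10.2). The labels call them biological replicates and name no separate cultures, so p-values measure the spread between these libraries.

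Alternatives were DESeq2 (1.42.0), its size factors, limma-voom (3.58.1), upper-quartile scaling, no filter, a filter of 1 CPM in 3 libraries, no robust step, the replicate block, a minimum change of 1.2-fold, another prior count (0.5) and each library left out in turn.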

Additional observations from a re-analysis of the deposited data

How the results depend on the processing

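KDM2B and, of the members, GPRC5A, RARA, RARG, RXRA and CYP26B1 kept their direction and their call under all 16 alternatives, and GPRC5B, RARB and RXRB passed under none of them. The log2 fold change of GPRC5C ran from 4.49 to 5.23, and that of CRABP2 from 0.35 to 0.61, with 8 of 16 alternatives keeping its call. Of the 9 other members, 5 or 6 passed when a library was left out. With the replicate block 5 passed, since CRABP2 was lost. Same-numbered libraries correlated at 0.118, -0.0258 and 0.0751 in their deviations from the group means, so the numbers were not taken to pair them.

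Tested against a 1.2-fold change, the calls fell to 2 for uptake, binding and storage genes, 8 for responsive genes, 10 for coregulators and 5 for other RXR partners, while calls over all 14071 genes fell from 8571 to 5458. Without the filter, 8 of the 20 listed synthesis genes were called, 4 higher and 4 lower, and 8876 of 35607 genes over all. GPRC5C's position per kilobase was the same with the longest transcript's length, at 8 in shKDM2B and 10 in empty vector cells, but CYP26B1 moved from position 2 to 3 and from 4 to 6. Low counts limit the folds of GPRC5C and DHRS3. With longest transcripts, RARA made up 62.4% and 39.2% of the RAR level in empty vector and shKDM2B cells. These share and ratio alternatives were chosen after seeing the data.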
